A study of Homo sapiens with 12 samples.

Results

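The comparison described here was that of KYSE30 cells treated with a PTDSS1 inhibitor (PTDSS1i) against KYSE30 cells treated with the vehicle, dimethyl sulfoxide (DMSO). KYSE30 is an established line of esophageal squamous cell carcinoma, and its libraries were taken by their labels of line and treatment: 6 of the 12 libraries of the series, 3 with 100 nM PTDSS1i for 48 h and 3 with an equal volume of DMSO for 48 h. The remaining 6 libraries carry the label of another line, U138MG, and were not used. U138MG is known as a glioblastoma line, but those libraries held from 12044 to 33118 counts of the squamous keratin *KRT5*, from 4533 to 6337 of *TP63* and from 3 to 11 of *VIM*. The genotype was given as wild type in every KYSE30 library, and all of them had 1 batch label. The series' description calls the 3 libraries of a group biological replicates, and nothing ties them to separate thaws or days, so the p-values measure the spread between these cultures of 1 line.

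Phosphatidylserine is made in the endoplasmic reticulum by the synthases PTDSS1 and PTDSS2, which exchange the head group of phosphatidylcholine or phosphatidylethanolamine for serine. It is then moved to the inner leaflet of the plasma membrane, where it recruits signalling proteins, or to mitochondria, where PISD turns it into phosphatidylethanolamine. Squamous epithelium of the esophagus is a layered tissue in which basal cells held to a laminin-rich basement membrane give rise to flattened cells with cross-linked envelopes.

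Poly-A RNA was sequenced, and the table held whole-number read counts for 30984 genes, 7297 of them without a gene name. Totals ran from 18800932 to 25233442 counts per library, so that 3 counts in the smallest library correspond to 0.160 CPM, the usual unit of counts scaled to a library's total. Levels below are normalized CPM, which use the library total after the trimmed mean of M-values (TMM) scaling, and they are not divided by gene length, so levels of different genes were not compared. Of the listed genes, 16389 had enough counts to be tested. Treatments were compared by the quasi-likelihood test of edgeR, with p-values adjusted after Benjamini and Hochberg over these genes. A gene was called with an adjusted p under 0.05 and a log2 fold change above 1 or below -1. By that rule 1049 genes (6.40%) rose and 1154 genes (7.04%) fell with PTDSS1i, and the median log2 fold change of all tested genes was -0.03. At the adjusted p alone, 4927 genes (30.1%) were higher and 5238 (32.0%) lower. These shares are the background for every list below. Read counts from a pool of cells cannot tell fewer cells of a type from less RNA per cell.

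The squamous label was checked against marker genes. *TP63*, *SOX2*, *DSG3* and *SFN*, all genes of squamous epithelium, had from 315 to 13182 counts in every library, and the epithelial genes *KRT8*, *KRT18*, *EPCAM* and *CDH1* had from 5237 to 144792. The basal keratins *KRT5* (0 to 3 counts) and *KRT14* (2 to 18 counts) and the desmosomal gene *PKP1* (1 to 3 counts) were at or near 0, as were the T cell gene *CD3E* (0 to 2 counts) and, of 7 glial genes in the table, *GFAP*, *OLIG1*, *SOX10*, *AQP4* and *FABP7* (0 to 2 counts). The other glial genes were *NES*, with 4 to 10 counts, and *PTPRZ1*, with 115 to 200. The inhibitor acts on the enzyme, and the RNA of *PTDSS1* was 177, 152 and 165 normalized CPM in the DMSO libraries and 160.1, 154 and 164 in the PTDSS1i libraries (log2 fold change -0.05 ± 0.057 SE, edgeR adjusted p = 0.494).

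Processes were followed through 39 hand-written gene lists with 1439 different tested members, of which 210 rose and 78 fell. Lists can share a gene, so their counts are not independent of each other. The members named with all their values were taken by rule, and those named with a log2 fold change alone were chosen after their values were seen.

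**Figure D1:**
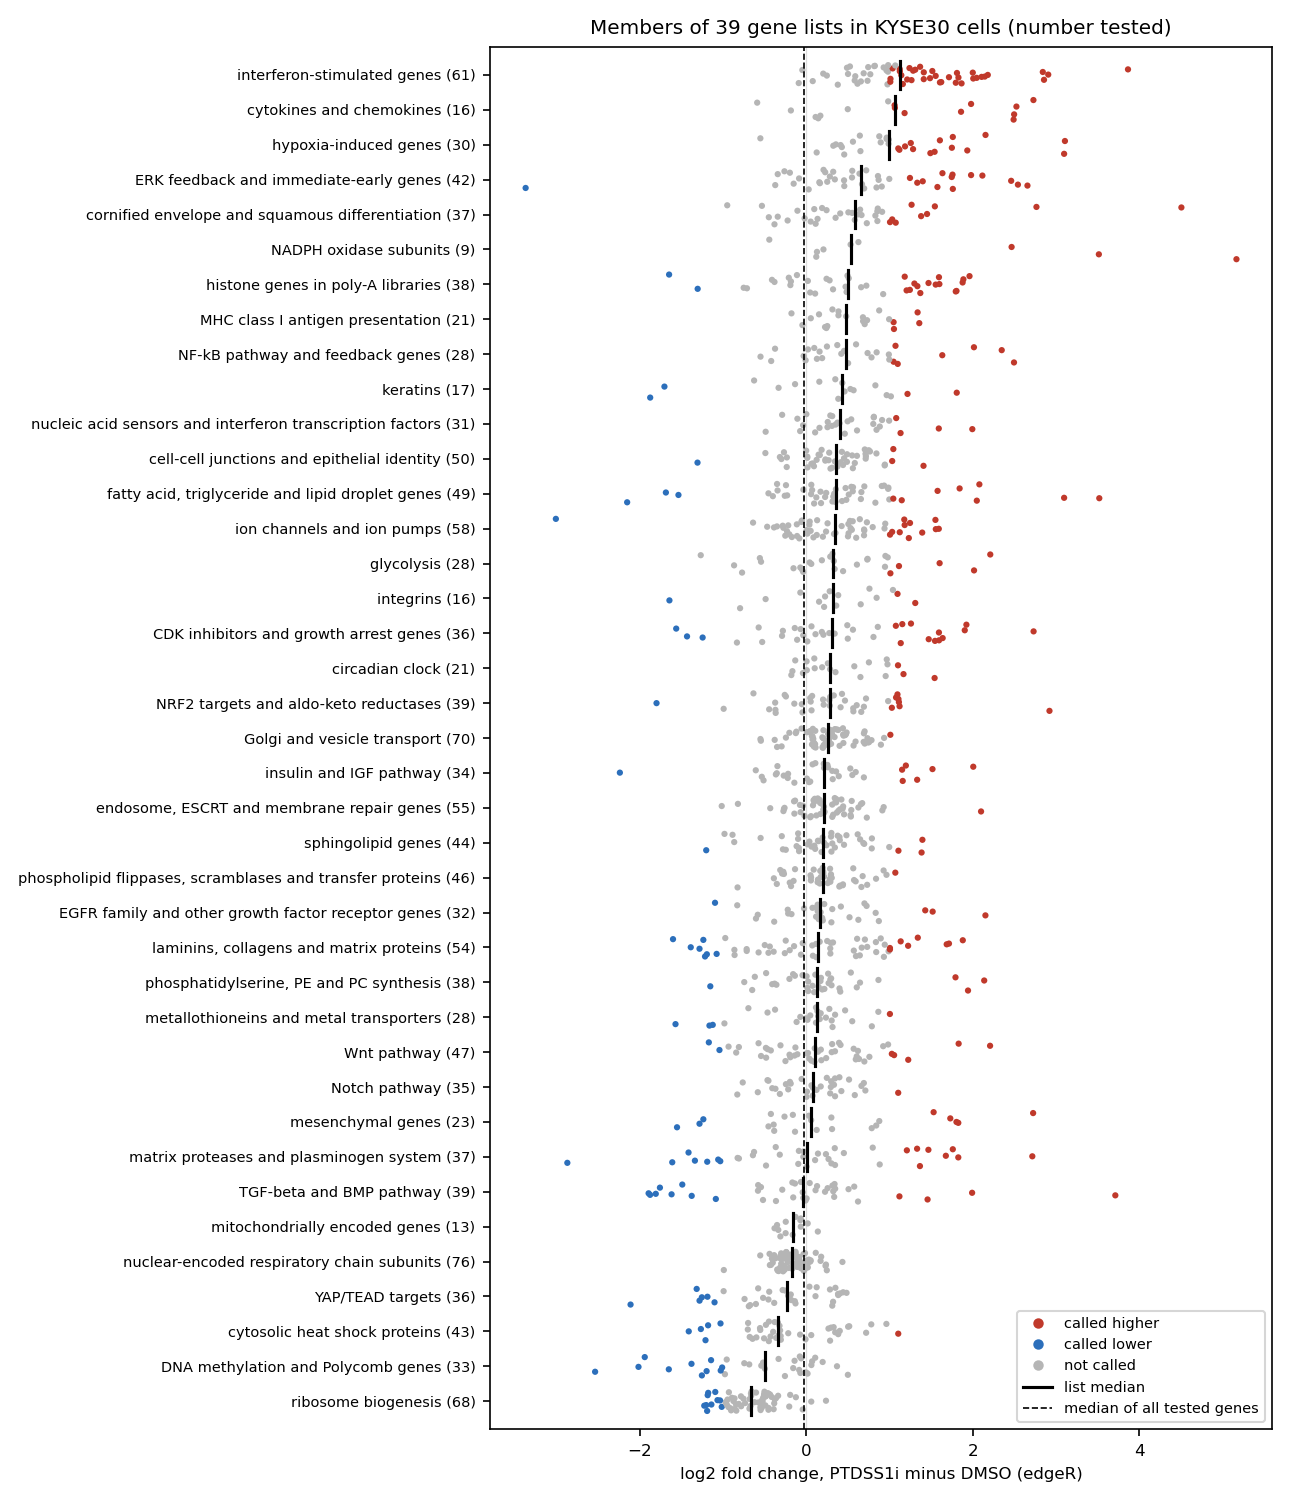
Log2 fold change (PTDSS1i against DMSO, x axis) of every tested member of each gene list (y axis), with 1 point per gene and a bar at each list's median. The medians run from -0.66 for ribosome biogenesis to 1.12 for interferon-stimulated genes, and the median of all tested genes was -0.03.

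Interferon-stimulated genes, which are switched on by interferon receptors or directly by sensors of foreign nucleic acid, were the list with the highest median. Of 61 tested members, 35 rose, against a background of 6.40%, and 53 were higher at an adjusted p under 0.05 without the fold threshold, where the background was 30.1%. The median log2 fold change was 1.12. By edgeR and DESeq2 the number called lower was 0, and 0 were lower at an unadjusted edgeR p under 0.05. The promoters of these genes are known for the interferon-stimulated response element, and the core letters GAAANNGAA were searched on both strands in the 250 bases before each start site listed by RefSeq on GRCh38.p14. Of the 47 members found in that table, 28 had a match, and 22 of the 29 that rose did. By promoter, 33 of 62 (53.2%) held the letters, against 6.88% of all 35116 promoters. Windows of 120 bases, all on the plus strand, are shown for 4 members that rose and for *MX1*, which did not, with the matches in capitals. They lie at chr2:6865725-6865844 (*RSAD2*), chr15:88638896-88639015 (*ISG20*), chr1:1013367-1013486 (*ISG15*), chr10:89392493-89392612 (*IFIT1*) and chr21:41431840-41431959 (*MX1*).
RSAD2: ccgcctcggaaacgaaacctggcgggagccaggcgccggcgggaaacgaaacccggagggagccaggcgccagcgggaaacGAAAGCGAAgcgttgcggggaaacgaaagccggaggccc
ISG20: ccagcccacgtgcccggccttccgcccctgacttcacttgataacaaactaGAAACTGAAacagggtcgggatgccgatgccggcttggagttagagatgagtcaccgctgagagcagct
ISG15: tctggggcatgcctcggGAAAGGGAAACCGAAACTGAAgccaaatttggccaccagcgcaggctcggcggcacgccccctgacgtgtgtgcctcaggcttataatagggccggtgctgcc
IFIT1: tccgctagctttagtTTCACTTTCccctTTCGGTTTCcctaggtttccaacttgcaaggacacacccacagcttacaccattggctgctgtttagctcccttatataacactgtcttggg
MX1: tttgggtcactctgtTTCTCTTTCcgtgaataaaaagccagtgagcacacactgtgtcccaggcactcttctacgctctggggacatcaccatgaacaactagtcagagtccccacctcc
Matches that overlap run together in *ISG15*, and in *IFIT1* and *MX1* the letters stand on the opposite strand. *MX1* held a match although its RNA did not pass the test, and a match in these letters is a description of the sequence alone.

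*RSAD2*, which encodes the antiviral enzyme viperin, measured 0.391, 1.16 and 0.553 normalized CPM in the DMSO libraries and 9.70, 11.1 and 9.66 in the PTDSS1i libraries (log2 fold change 3.86 ± 0.21 SE, edgeR adjusted p = 2.01e-12). The ubiquitin-like protein gene *ISG15* went from 54.3, 71.9 and 63.9 to 277, 305 and 279 (log2 fold change 2.18 ± 0.086 SE, edgeR adjusted p = 2.41e-10). *OASL*, a relative of the oligoadenylate synthetases, went from 26.8, 32.3 and 32.7 to 209, 239.6 and 209.7 (log2 fold change 2.84 ± 0.076 SE, edgeR adjusted p = 2.48e-15). For all these genes every PTDSS1i library was above every DMSO library. *ISG20*, an exonuclease of single-stranded RNA, rose from 4.01, 3.98 and 5.74 to 31.9, 36.0 and 36.2 (log2 fold change 2.91 ± 0.11 SE, edgeR adjusted p = 7.18e-15). *IFIT1*, which binds RNA with a foreign cap structure, rose from 40.6, 54.6 and 56.2 to 154, 175 and 168 (log2 fold change 1.71 ± 0.12 SE, edgeR adjusted p = 1.37e-05), and *OAS1*, which makes the activator of RNase L, from 82.6, 125 and 108 to 362, 390.5 and 356 (log2 fold change 1.81 ± 0.16 SE, edgeR adjusted p = 3.52e-04). The GTPase gene *MX1* stood apart from these: its levels were 1.47, 1.97 and 1.11 with DMSO and 1.63, 2.09 and 1.49 with PTDSS1i, and the groups overlapped (log2 fold change 0.20 ± 0.24 SE, edgeR adjusted p = 0.484). Other members that rose were *HERC5* (2.86), the ligase that attaches ISG15, *IFIT3* (2.14), *IFIT2* (2.11), *IFI6* (2.05), *OAS2* (2.00), *BST2* (1.86), *IFIH1* (1.83) and *DDX60* (1.80). Summed over the list, the DMSO libraries held 2696 to 3457 normalized CPM and the PTDSS1i libraries 6406 to 7072, with a ratio of means of 2.17. In both groups the library numbered 1 had the lowest sum and the library numbered 2 the highest.

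Upstream of these genes, 4 of 31 tested nucleic acid sensors and interferon transcription factors rose, with a list median of 0.40, and 2 did when 10 counts were required in every library. *IFI16*, a sensor of DNA, rose from 15.5, 22.2 and 17.5 to 36.4, 42.0 and 42.5 (log2 fold change 1.13 ± 0.11 SE, edgeR adjusted p = 1.76e-06). The lambda interferons themselves were rare: *IFNL1* had 0.244, 0.605 and 0.213 with DMSO and 1.68, 1.22 and 1.28 with PTDSS1i (1.99 on the log2 scale), and *IFNL3* 0.195, 0.353 and 0.213 with DMSO and 0.932, 0.816 and 0.578 with PTDSS1i (1.59). The lambda interferon genes are close copies, so reads may have been split between them. The DNA-sensing adaptor *STING1* was higher by less than the fold threshold (log2 fold change 0.31 ± 0.056 SE, edgeR adjusted p = 5.88e-05), as was *IRF1* (0.88), and *IRF9*, a transcription factor of the interferon response, was at 3.03, 4.08 and 3.40 with DMSO and 5.13, 4.38 and 4.33 with PTDSS1i (log2 fold change 0.40 ± 0.15 SE, edgeR adjusted p = 0.0288). Within MHC class I presentation, which displays cytosolic peptides to T cells, 4 of 21 tested genes rose with a median of 0.48: the heavy chains *HLA-B* (1.36) and *HLA-C* (1.05), the light chain *B2M* (1.05) and the peptide transporter *TAP1* (1.34). *TAP1* went from 26.5, 38.2 and 32.1 to 82.9, 82.9 and 78.6 (log2 fold change 1.34 ± 0.11 SE, edgeR adjusted p = 1.63e-06) and *HLA-B* from 96.2, 124 and 107 to 281, 284 and 273 (log2 fold change 1.36 ± 0.071 SE, edgeR adjusted p = 5.74e-11). *B2M* had a fold change of 0.98 without the DMSO library numbered 1, and with scaling by library size alone only 2 members passed. Class I heavy chain genes are similar in sequence, so the split of reads between them is uncertain.

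Cytokines and the NF-kB pathway, which drives many of them, rose in part. Of 36 listed cytokines and chemokines only 16 had enough counts to be tested, and 9 of these rose, with a median of 1.06. The untested ones, *IL6* (0 to 3 counts) and *TNF* (0 to 6 counts) among them, had at most 13 counts in a library. A gene could pass the count filter through the PTDSS1i libraries alone, so this share and median depend on the filter. *CXCL8*, a neutrophil attractant, measured 0.977, 1.41 and 1.32 with DMSO and 7.36, 7.09 and 6.60 with PTDSS1i (log2 fold change 2.50 ± 0.17 SE, edgeR adjusted p = 2.82e-11). *TNFSF9*, the ligand of the costimulatory receptor 4-1BB of T cells, went from 7.48, 5.40 and 5.70 to 45.2, 40.7 and 37.2 (log2 fold change 2.73 ± 0.11 SE, edgeR adjusted p = 3.29e-14), and *IL32* from 1.81, 1.21 and 1.87 to 8.67, 9.43 and 10.3 (log2 fold change 2.52 ± 0.16 SE, edgeR adjusted p = 8.38e-12). *CCL5* (2.49), *LIF* (1.98), *IL15* (1.86) and *IL11* (1.18) also rose, while *IL1A* stayed under 1 normalized CPM in all 6 libraries. Among 28 tested NF-kB genes, 7 rose with a median of 0.48, and 4 with scaling by library size alone. They held the noncanonical subunits *RELB* (12.9, 10.9 and 11.1 with DMSO and 62.1, 59.1 and 56.3 with PTDSS1i) and *NFKB2* (1.63), and feedback genes of the pathway. *RELB* rose with log2 fold change 2.35 ± 0.076 SE, edgeR adjusted p = 1.61e-16. *BIRC3*, an inhibitor of apoptosis protein in the receptor complex, rose from 6.35, 5.29 and 6.63 to 34.4, 33.8 and 35.3 (log2 fold change 2.49 ± 0.089 SE, edgeR adjusted p = 6.71e-16), and *TNFAIP3*, the deubiquitinase that ends the signal, from 6.94, 7.61 and 6.51 to 29.04, 28.6 and 27.2 (log2 fold change 2.01 ± 0.088 SE, edgeR adjusted p = 1.71e-14). The inhibitor gene *NFKBIA* had a log2 fold change of 0.99, just under the threshold, with 89.7, 90.9 and 87.5 with DMSO and 189, 175 and 169 with PTDSS1i. Across the sensor, MHC class I, cytokine and NF-kB lists, edgeR and DESeq2 called 0 members lower, while 2, 1, 2 and 3 members were lower at an unadjusted edgeR p under 0.05. Exons overlapped for *RSAD2* with *CMPK2*, *ISG15* with *AL645608.3*, *OAS1* with *AC004551.1*, *MX1* with *AP001610.1*, *TAP1* with *PSMB8-AS1*, *HLA-B* with *AL671883.2* and with *HLA-C*, *IL32* with *RNU1-125P* and *TNFAIP3* with *AL357060.1* in the GENCODE v29 annotation. The labels name a kit that does not mark strand, so such reads cannot be assigned with certainty.

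**Figure D2:**
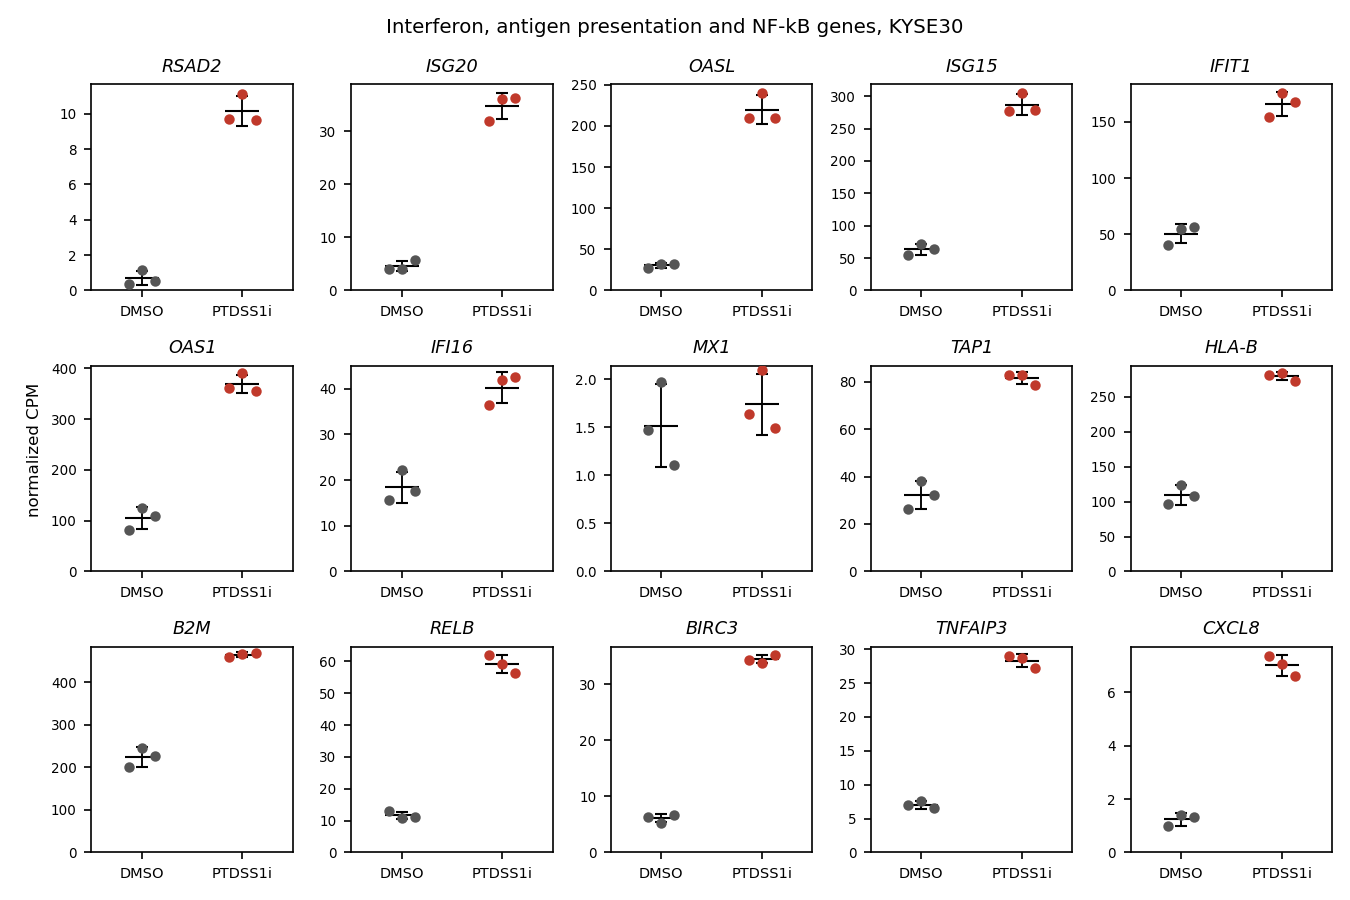
Normalized CPM (y axis, from 0) of interferon, antigen presentation, NF-kB and cytokine genes in the KYSE30 libraries, with 1 point per library in replicate order, a bar at the mean and an error bar of 1 SD (n = 3). *MX1* is the panel in which the groups overlap, and *ISG15* sits at 54.3 to 71.9 with DMSO and 277 to 305 with PTDSS1i.

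Squamous differentiation genes split by type. Genes of some small proline-rich proteins, which are cross-linked into the cornified envelope, rose, while the paired keratins of the upper layers of esophageal epithelium fell. Of 37 tested genes of the cornified envelope list, 9 rose with a median of 0.58, and by edgeR and DESeq2 0 were called lower, with 4 lower at an unadjusted edgeR p under 0.05. With scaling by library size alone 6 rose and 1 fell. The AP-1 element, TGANTCA on either strand, occurred in 12 of 39 promoters of the list (30.8%), in 11 of the 29 members found, and in 6.57% of all promoters. Of the 9 members that rose and were found, 4 had a match. Windows of 120 bases on the plus strand before the starts of the strongest members, chr1:152983931-152984050 and chr1:153031053-153031172 on GRCh38.p14, are shown with the matches in capitals.
SPRR1A: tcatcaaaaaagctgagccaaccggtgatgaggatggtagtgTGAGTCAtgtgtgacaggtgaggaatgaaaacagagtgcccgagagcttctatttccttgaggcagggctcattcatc
SPRR1B: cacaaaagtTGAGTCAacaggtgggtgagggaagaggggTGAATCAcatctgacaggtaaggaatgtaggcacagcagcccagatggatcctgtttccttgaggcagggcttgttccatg
*SPRR1A* measured 2.88, 2.27 and 2.04 with DMSO and 48.9, 56.3 and 57.6 with PTDSS1i (log2 fold change 4.51 ± 0.11 SE, edgeR adjusted p = 3.14e-18), and its neighbour *SPRR1B* 2.35, 1.46 and 1.62 with DMSO and 12.1, 12.5 and 12.3 with PTDSS1i (log2 fold change 2.76 ± 0.15 SE, edgeR adjusted p = 4.27e-13). The transcription factor *KLF4*, which acts in barrier formation, rose from 57.8, 55.8 and 53.6 to 143, 146 and 146 (log2 fold change 1.38 ± 0.052 SE, edgeR adjusted p = 1.98e-15). The list was not uniform: involucrin, *IVL*, was slightly lower, with 29.3, 30.8 and 31.9 with DMSO and 23.8, 24.0 and 24.6 with PTDSS1i (log2 fold change -0.34 ± 0.067 SE, edgeR adjusted p = 1.42e-04), and the cross-linking enzyme *TGM1* was at 1.22, 0.908 and 0.936 with DMSO and 0.513, 0.612 and 0.949 with PTDSS1i with overlapping groups (log2 fold change -0.53 ± 0.30 SE, edgeR adjusted p = 0.132).

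Among 17 tested keratins, 2 rose and 2 fell. *KRT13* and its partner *KRT4*, which fill the suprabasal cells of esophageal mucosa, fell: *KRT13* was 132, 162 and 144 with DMSO and 39.8, 43.7 and 35.9 with PTDSS1i (log2 fold change -1.88 ± 0.082 SE, edgeR adjusted p = 5.70e-11), and *KRT4* was 16.1, 24.6 and 21.8 with DMSO and 6.67, 6.52 and 5.99 with PTDSS1i (log2 fold change -1.71 ± 0.14 SE, edgeR adjusted p = 7.69e-08). The injury-associated keratins moved the other way, *KRT16* from 4.64, 4.08 and 3.36 to 9.56, 9.12 and 9.25 (log2 fold change 1.21 ± 0.13 SE, edgeR adjusted p = 3.87e-08) and *KRT17* from 2.00, 3.18 and 3.66 to 8.67, 11.9 and 10.7 (log2 fold change 1.81 ± 0.17 SE, edgeR adjusted p = 8.25e-08). For each of these keratins the groups did not overlap. *KRT16* and *KRT17* are close in sequence to *KRT14*, so their reads may be shared, and without the DMSO library numbered 1 the keratins called higher were 5. The simple-epithelium keratins *KRT8* and *KRT18* were higher by less than the fold threshold (0.43 and 0.46).

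Cell-cell junction genes had few calls past the fold threshold, 3 of 50 higher and 1 lower, but by the adjusted p alone 33 passed in the higher and 7 in the lower direction, against 30.1% and 32.0% of all tested genes, with a median of 0.36. The tight junction gene *CLDN3* rose from 28.4, 31.2 and 25.9 to 82.9, 73.6 and 70.1 (log2 fold change 1.41 ± 0.074 SE, edgeR adjusted p = 1.16e-12), and the desmosomal cadherin *DSC3* fell from 20.8, 23.4 and 21.3 to 8.30, 8.26 and 9.78 (log2 fold change -1.31 ± 0.093 SE, edgeR adjusted p = 7.11e-11). *CDH1*, the cadherin of adherens junctions, was higher by 0.56 on the log2 scale, under the threshold. Of 23 tested mesenchymal genes, 5 rose and 3 fell. The intermediate filament gene *VIM* went from 4.89, 2.92 and 3.78 to 26.01, 22.4 and 28.2 (log2 fold change 2.72 ± 0.14 SE, edgeR adjusted p = 1.28e-11), while the matrix gene *FN1*, often read together with it, fell from 73.4, 116 and 94.7 to 42.0, 37.5 and 37.0 (log2 fold change -1.28 ± 0.20 SE, edgeR adjusted p = 0.00369). The transcription factor *SNAI2* was at 24.1, 24.2 and 24.8 with DMSO and 26.6, 24.1 and 25.3 with PTDSS1i with overlapping groups, and *ZEB1* was called higher with at most 27 counts in a library and an edgeR adjusted p of 0.0683 without the PTDSS1i library numbered 3. Of the other fibroblast genes, *COL1A2* (0 to 2 counts) and *PDGFRB* (1 to 5 counts) were near 0 in both groups, while *COL1A1* had 201 to 410 counts and *TWIST1* 198 to 251.

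Matrix genes were called in both directions, and of 54 tested 8 rose and 7 fell. Laminin-332, the anchor of basal keratinocytes, has chains encoded by genes that rose: *LAMB3* went from 183, 205 and 182 to 641, 588 and 602 (log2 fold change 1.69 ± 0.058 SE, edgeR adjusted p = 3.90e-16), and *LAMA3* (1.22) also rose. Its receptor subunit *ITGB4* went from 1654, 1590.1 and 1468 to 3442, 3261 and 3363 (log2 fold change 1.09 ± 0.058 SE, edgeR adjusted p = 5.36e-13), although with scaling by library size alone it was 0.99 and 1 integrin rather than 2 of 16 rose. Its partner *ITGA6* had a log2 fold change of 0.15 and the hemidesmosomal collagen *COL17A1* of 0.64, neither past the threshold. The heparan sulfate proteoglycan *SDC4*, a component of focal adhesions, went from 127, 120.2 and 122 to 448, 455 and 454 (log2 fold change 1.88 ± 0.051 SE, edgeR adjusted p = 1.17e-17), and the fibronectin receptor subunit *ITGA5* from 33.9, 33.2 and 33.8 to 86.7, 82.7 and 80.5 (log2 fold change 1.31 ± 0.057 SE, edgeR adjusted p = 2.04e-14). Other matrix genes fell: thrombospondin *THBS1* from 165, 158 and 162 to 55.2, 53.0 and 51.6 (log2 fold change -1.60 ± 0.053 SE, edgeR adjusted p = 2.18e-16), the hyaluronan synthase *HAS2* (-1.39), *COL12A1* (-1.22), and the paired basement membrane collagens *COL4A1* (-1.20) and *COL4A2* (-1.08).

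Matrix proteases divided almost evenly, with 8 of 37 higher and 7 lower. Genes of plasminogen activation rose: urokinase *PLAU* from 168, 150.5 and 148 to 349.9, 356 and 371 (log2 fold change 1.21 ± 0.055 SE, edgeR adjusted p = 4.37e-14), and its receptor *PLAUR* from 48.0, 40.2 and 45.4 to 119, 125 and 125 (log2 fold change 1.47 ± 0.062 SE, edgeR adjusted p = 1.00e-14). The collagen cross-linking enzyme *LOXL2* rose as well (1.83). *MMP2*, a gelatinase, fell from 46.5, 53.8 and 48.1 to 17.9, 18.8 and 18.9 (log2 fold change -1.42 ± 0.071 SE, edgeR adjusted p = 1.81e-13), and 5 of the members that fell were ADAMTS or ADAMTS-like genes, *ADAMTS1* among them (-2.87). Exons overlapped for *KRT8* with *KRT18*, *KRT13* with *AC019349.1*, *VIM* with *AL133415.1*, *LAMB3* with *MIR4260*, *ITGA5* with *AC079313.1*, *THBS1* with *AC037198.2*, *HAS2* with *HAS2-AS1*, *LOXL2* with *AC090197.1*, *MMP2* with *AC007336.3*, *PLAU* with *C10orf55* and *ZEB1* with *ZEB1-AS1*.

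**Figure D3:**
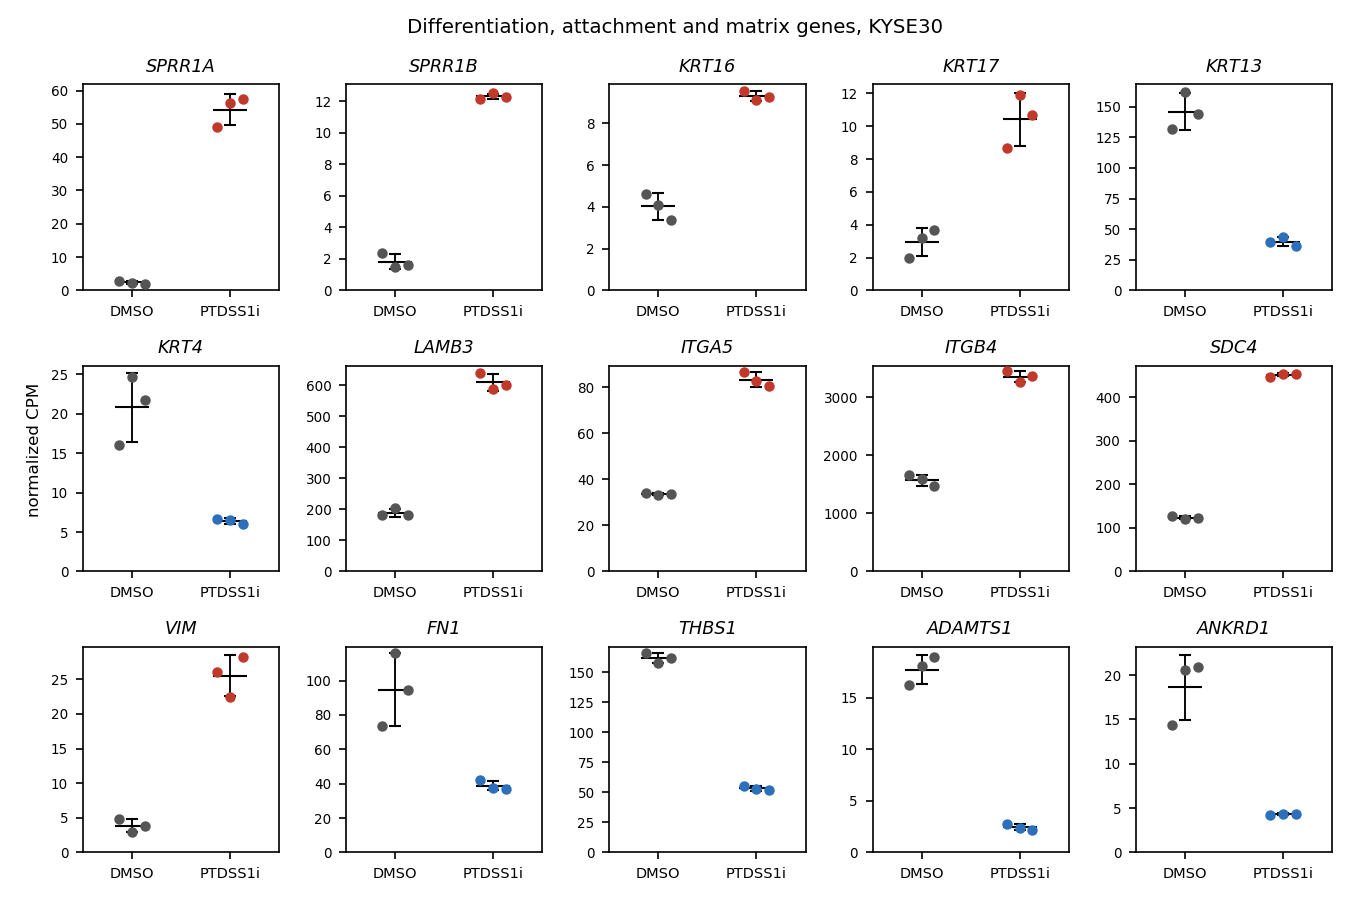
Normalized CPM (y axis, from 0) of differentiation, attachment and matrix genes in the KYSE30 libraries, with 1 point per library in replicate order, a bar at the mean and an error bar of 1 SD (n = 3). *SPRR1A*, *LAMB3*, *ITGA5*, *SDC4* and *VIM* are higher in every PTDSS1i library, and *KRT13*, *KRT4*, *FN1*, *THBS1* and *ANKRD1* are lower in every one.

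Targets of YAP and TEAD, which report on cell spreading and tension, were the signalling list with calls in the lower direction alone. Of 36 tested members 6 fell, against a background of 7.04%, and the median was -0.24. Under either edgeR or DESeq2 the number called higher was 0, and 8 were higher at an unadjusted edgeR p under 0.05. *ANKRD1* fell from 14.3, 20.5 and 20.97 to 4.20, 4.38 and 4.33 (log2 fold change -2.11 ± 0.14 SE, edgeR adjusted p = 3.91e-10), *CCN2* from 68.0, 63.2 and 67.2 to 27.3, 26.7 and 27.5 (log2 fold change -1.28 ± 0.06 SE, edgeR adjusted p = 6.11e-14) and the transcription factor *TEAD4* itself from 30.6, 28.6 and 28.03 to 10.2, 11.2 and 13.5 (log2 fold change -1.32 ± 0.091 SE, edgeR adjusted p = 4.32e-11). The canonical target *CCN1* was at 80.0, 67.6 and 72.2 with DMSO and 62.4, 68.4 and 68.9 with PTDSS1i with overlapping groups (log2 fold change -0.14 ± 0.064 SE, edgeR adjusted p = 0.0638). 

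In the TGF-beta and BMP list, 4 of 39 tested genes rose and 8 fell, with a median of -0.04. The falls held the ID genes, BMP targets that block differentiation factors: *ID1* went from 318, 419.5 and 351 to 91.3, 108 and 97.0 (log2 fold change -1.88 ± 0.11 SE, edgeR adjusted p = 2.10e-06), *ID4* from 29.7, 45.4 and 41.5 to 8.34, 11.7 and 11.3 (log2 fold change -1.90 ± 0.22 SE, edgeR adjusted p = 7.31e-04), and *ID3* (-1.81) and *ID2* (-1.62) fell too. The inhibitory SMAD gene *SMAD6* (-1.76) and the ligand *BMP4* (-1.09) fell, whereas the ligand *BMP2* (1.46) rose. *SMAD7* was lower by less than the threshold (-0.55). Ligands of the wider family rose, with *GDF15* at 67.1, 67.3 and 61.7 with DMSO and 956, 837 and 775 with PTDSS1i (log2 fold change 3.71 ± 0.075 SE, edgeR adjusted p = 7.58e-18) and the activin subunit *INHBB* at 1.66, 2.72 and 2.59 with DMSO and 8.81, 10.3 and 8.83 with PTDSS1i (log2 fold change 1.99 ± 0.16 SE, edgeR adjusted p = 3.24e-10).

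Feedback and immediate-early genes of the ERK pathway rose in part, with 13 of 42 tested members higher, 1 lower and a median of 0.65. *DUSP8*, a phosphatase of the stress kinases JNK and p38, went from 5.33, 5.45 and 4.30 to 31.3, 31.0 and 32.2 (log2 fold change 2.66 ± 0.094 SE, edgeR adjusted p = 6.36e-16), and the AP-1 subunit *FOSB* from 3.08, 2.77 and 2.81 to 14.9, 17.3 and 15.5 (log2 fold change 2.46 ± 0.12 SE, edgeR adjusted p = 8.99e-14). Further AP-1 genes that rose were *JUND* (1.75), *FOS* (1.40) and *JUN* (1.24), with *MAFF* (1.76), *KLF6* (2.11) and the phosphatases *DUSP1* (1.76) and *DUSP5* (1.57). Other members of the list did not pass the fold threshold: *DUSP6* was 55.2, 62.6 and 58.3 with DMSO and 111, 107 and 112 with PTDSS1i (0.91, under the threshold), *SPRY4* was higher by 0.72, *ETV4* by 0.16, and *EGR1* was lower (log2 fold change -0.37 ± 0.089 SE, edgeR adjusted p = 9.45e-04). *FOSL1* varied among the DMSO libraries, at 73.7, 42.4 and 49.1 with DMSO against 75.2, 75.3 and 75.4 with PTDSS1i (log2 fold change 0.45 ± 0.23 SE, edgeR adjusted p = 0.161).

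A list of growth factor receptors, those of the EGFR family included, with ligands, adaptors and related genes had 3 of 32 rise and 1 fall. Of these the ligand *HBEGF* is a gene of the EGFR family, and the others were *FGFBP1*, the adaptor *GAB2* (1.52) and *TYRO3*. *EGFR*, amplified in many squamous carcinomas, was 1598, 1565 and 1622 with DMSO and 1789, 1746 and 1767 with PTDSS1i (log2 fold change 0.15 ± 0.052 SE, edgeR adjusted p = 0.0178). *FGFBP1*, which releases fibroblast growth factors from the matrix, rose from 251, 172 and 228 to 967, 960.0 and 964 (log2 fold change 2.15 ± 0.14 SE, edgeR adjusted p = 2.19e-05), and *HBEGF* from 6.30, 5.24 and 5.06 to 15.4, 13.9 and 15.3 (log2 fold change 1.43 ± 0.11 SE, edgeR adjusted p = 2.20e-10). *TYRO3*, a receptor of the TAM family whose bridging ligands bind exposed phosphatidylserine, fell from 21.3, 21.4 and 22.3 to 11.0, 9.48 and 9.91 (log2 fold change -1.10 ± 0.086 SE, edgeR adjusted p = 3.22e-10). The insulin and IGF list had 6 of 34 higher and 1 lower. *IRS2*, an adaptor of the insulin receptor, rose from 63.6, 64.3 and 56.5 to 149.7, 132 and 128 (log2 fold change 1.15 ± 0.066 SE, edgeR adjusted p = 4.68e-12), while *IRS1* was lower by less than the threshold (-0.61). *PIK3IP1*, an inhibitor of phosphatidylinositol 3-kinase, rose from 7.09, 13.97 and 10.2 to 40.4, 42.1 and 42.9 (log2 fold change 2.01 ± 0.21 SE, edgeR adjusted p = 4.50e-04), and *FOXO3* (1.33) rose. In the Wnt list 5 of 47 rose, the ligand *WNT7A* (1.83) among them, and 2 fell, the receptor-removing ligase *ZNRF3* (-1.17) and *TCF7* (-1.04), the latter at -0.97 without the DMSO library numbered 2. *WNT7A* measured 22.9, 18.96 and 18.4 with DMSO and 75.6, 69.4 and 68.9 with PTDSS1i. In the Notch list 1 of 35 rose, *DTX4* (1.10, and 0.997 with scaling by library size alone), with 0 called lower by edgeR and DESeq2 and 11 lower at an unadjusted edgeR p under 0.05. Without the PTDSS1i library numbered 3, 1 Notch gene was called lower. *HES1* was lower by less than the threshold (-0.58). Exons overlapped for *CCN2* with *AL133346.1*, *PIK3IP1* with *PIK3IP1-AS1*, *IRS2* with *AL162497.1*, *TCF7* with *SKP1*, *DTX4* with *MPEG1*, *EGFR* with *EGFR-AS1* and *DUSP6* with *AC024909.2*.

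Among lipid genes outside sterol synthesis, the fatty acid and triglyceride list held the most calls. Of 49 tested genes of fatty acid and triglyceride metabolism 8 rose and 3 fell, with a median of 0.35. The summed level was 2.78 times the DMSO mean, and *SCD* and *FASN* made up most of that rise. *ACSS2*, which makes acetyl-CoA from acetate, went from 51.9, 48.0 and 49.2 to 572, 564 and 573 (log2 fold change 3.52 ± 0.056 SE, edgeR adjusted p = 3.61e-21). *SCD*, the desaturase that makes oleate, went from 1652, 1434 and 1612 to 6535, 6510.3 and 6798 (log2 fold change 2.08 ± 0.064 SE, edgeR adjusted p = 9.15e-17), and fatty acid synthase *FASN* from 2147, 1775 and 1857 to 5831, 5702 and 5696 (log2 fold change 1.58 ± 0.067 SE, edgeR adjusted p = 1.09e-14). The members that fell were *ACACB* (-2.15), *FABP5* (-1.69) and *DGAT2* (-1.54).

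The list of phosphatidylserine, phosphatidylethanolamine and phosphatidylcholine synthesis had 3 of 38 tested genes higher (7.89%) and 1 lower (2.63%), with a median of 0.13. The backgrounds were 6.40% and 7.04%, so the share called higher was near that of all tested genes. *PCYT2*, the rate-limiting enzyme of phosphatidylethanolamine synthesis from ethanolamine, rose from 83.0, 70.0 and 71.1 to 264, 255 and 257 (log2 fold change 1.79 ± 0.06 SE, edgeR adjusted p = 3.08e-16). *LPIN1*, which makes diacylglycerol, rose from 70.6, 50.7 and 59.4 to 267, 262 and 266 (log2 fold change 2.14 ± 0.098 SE, edgeR adjusted p = 3.25e-08), and the acyltransferase *AGPAT4* from 3.91, 4.54 and 3.49 to 13.9, 15.3 and 16.3 (log2 fold change 1.94 ± 0.12 SE, edgeR adjusted p = 4.83e-12). *CHPT1*, which completes phosphatidylcholine in the Golgi, fell from 10.4, 11.3 and 12.0 to 4.89, 5.25 and 5.04 (log2 fold change -1.15 ± 0.11 SE, edgeR adjusted p = 9.70e-09). *PTDSS2*, the synthase that uses phosphatidylethanolamine, was 49.3, 51.5 and 49.4 with DMSO and 57.5, 51.0 and 53.2 with PTDSS1i (log2 fold change 0.11 ± 0.06 SE, edgeR adjusted p = 0.128), and the decarboxylase *PISD* was 63.4, 57.5 and 59.1 with DMSO and 55.7, 56.9 and 51.1 with PTDSS1i (log2 fold change -0.14 ± 0.061 SE, edgeR adjusted p = 0.0537). Neither passed the test. The choline kinase *CHKA* was higher by 0.61, under the threshold.

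Flippases, scramblases and lipid transfer proteins, which place phosphatidylserine in membranes, showed 1 call among 46 tested members, *STARD10* (1.07), a transfer protein for phosphatidylcholine and phosphatidylethanolamine, which was 0.96 with scaling by library size alone. With edgeR and with DESeq2 0 were called lower, and 9 were lower at an unadjusted edgeR p under 0.05. The carriers that bring phosphatidylserine to the plasma membrane differed in direction below the threshold, *OSBPL5* being lower (log2 fold change -0.39 ± 0.10 SE, edgeR adjusted p = 0.00218) and *OSBPL8* higher (log2 fold change 0.30 ± 0.072 SE, edgeR adjusted p = 9.60e-04). The scramblase *ANO6* was higher by 0.44, the phosphatidylserine-binding annexin *ANXA2* by 0.31, and *ANXA5* was at 105, 96.1 and 107 with DMSO and 108, 103 and 109 with PTDSS1i with overlapping groups. In the sphingolipid list 3 of 44 rose (6.82%, background 6.40%) and 1 fell (2.27%, background 7.04%), so the share that rose was near that of all tested genes. Those that rose held the alkaline ceramidase *ACER2*, from 4.40, 7.97 and 5.61 to 18.5, 14.9 and 13.5 (log2 fold change 1.38 ± 0.20 SE, edgeR adjusted p = 2.85e-04), and the sphingosine phosphate phosphatase *SGPP2*, from 2.59, 3.48 and 2.68 to 8.06, 6.93 and 7.88 (log2 fold change 1.39 ± 0.14 SE, edgeR adjusted p = 2.85e-08). Without the PTDSS1i library numbered 1, 5 rose. Endosome, ESCRT and membrane repair genes had 1 call among 55, the repair protein *DYSF* (2.10), and a median of 0.21. The 70 tested Golgi and vesicle genes had a median of 0.26 and 1 call, *KDELR3* (1.01), which was 0.97 without the DMSO library numbered 3. For both lists 0 were called lower by edgeR and 7 and 7 were lower at an unadjusted edgeR p under 0.05. DESeq2 also called 0 lower in both, while edgeR with scaling by library size alone called 1 gene of the endosome list lower.

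Hypoxia-induced genes, which respond to HIF and to other stresses, were the list with the next largest median after the interferon-stimulated genes and the cytokines. Of 30 tested members 14 rose and 27 were higher at an adjusted p under 0.05 alone (background 30.1%), with a median of 0.99. By edgeR and DESeq2 0 were called lower, with 1 lower at an unadjusted edgeR p under 0.05. The sum over the list was 1534, 1464 and 1424 with DMSO and 3499, 3381 and 3446 with PTDSS1i, a ratio of means of 2.33. *NDRG1* went from 57.7, 60.7 and 41.0 to 486, 426 and 456 (log2 fold change 3.11 ± 0.16 SE, edgeR adjusted p = 2.50e-05), the angiogenic factor *VEGFA* from 45.9, 41.1 and 36.2 to 186, 184 and 177 (log2 fold change 2.15 ± 0.068 SE, edgeR adjusted p = 4.52e-16), and *ANGPTL4*, an inhibitor of lipoprotein lipase, from 4.94, 4.54 and 4.30 to 42.6, 35.4 and 39.6 (log2 fold change 3.10 ± 0.096 SE, edgeR adjusted p = 1.05e-16). The mitophagy receptors *BNIP3* (1.93) and *BNIP3L* (1.12) and the HIF hydroxylases *EGLN3* (1.75) and *EGLN1* (1.10) rose too. *ADM*, another textbook HIF target, was higher by 0.45, under the threshold.

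Glycolysis genes rose in 5 of 28 cases, with a median of 0.32 and, by edgeR, 0 called lower. DESeq2 called 1 lower, and 6 were lower at an unadjusted edgeR p under 0.05. *LDHA*, which turns pyruvate into lactate, went from 1017, 788 and 890.0 to 2082, 1829.6 and 1915 (log2 fold change 1.11 ± 0.082 SE, edgeR adjusted p = 2.91e-08). *SLC2A6*, a hexose transporter of lysosomes, went from 86.9, 76.7 and 85.2 to 395, 388 and 368 (log2 fold change 2.21 ± 0.058 SE, edgeR adjusted p = 7.83e-18), and the regulatory kinase *PFKFB4* from 16.6, 16.2 and 14.6 to 46.8, 50.01 and 46.8 (log2 fold change 1.60 ± 0.071 SE, edgeR adjusted p = 2.33e-14). The glucose transporters of the plasma membrane differed, *SLC2A1* being higher by 0.29 and *SLC2A3* at 7.77, 20.5 and 10.7 with DMSO and 4.71, 6.07 and 5.33 with PTDSS1i (log2 fold change -1.27 ± 0.45 SE, edgeR adjusted p = 0.0699), with 1 DMSO library far above the others. *SLC2A3* was called lower by DESeq2 (adjusted p = 0.00767) and, by edgeR, without the DMSO library numbered 1 (adjusted p = 0.0278). It was also called lower by edgeR with the replicate numbers as a block (log2 fold change -1.21, adjusted p = 6.15e-05).

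Respiratory chain genes were shifted in the opposite direction by small amounts. Of 76 nuclear-encoded subunits 35 were lower and 3 higher at an adjusted p under 0.05, against 32.0% and 30.1% of all tested genes, with a median of -0.17. In the main edgeR fit and with DESeq2 0 passed the fold threshold in either direction, and 36 were lower and 3 higher at an unadjusted edgeR p under 0.05. In some alternative edgeR fits, that with scaling by library size alone among them, 1 was called lower. *NDUFS1* of complex I was 56.6, 53.9 and 58.9 with DMSO and 54.7, 52.2 and 49.3 with PTDSS1i, with overlapping groups. For the 13 genes of mitochondrial DNA the median was -0.16, and their share of all counts was 7.31 to 7.67% with DMSO and 6.47 to 6.78% with PTDSS1i. Both tools called 0 of them, and 7 were lower and 1 higher at an unadjusted edgeR p under 0.05.

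Subunits of NADPH oxidases, which make superoxide or hydrogen peroxide at membranes, included the largest rise among all the lists. *CYBA*, the membrane subunit p22phox shared by several oxidases, went from 0.831, 0.454 and 0.468 to 20.2, 21.8 and 21.2 (log2 fold change 5.17 ± 0.16 SE, edgeR adjusted p = 9.52e-17). The organizer *NOXO1* went from 2.59, 1.82 and 1.91 to 11.4, 12.8 and 10.8 (log2 fold change 2.47 ± 0.14 SE, edgeR adjusted p = 2.45e-12). In all, 3 of 9 tested subunits were called higher, with 0 lower by edgeR and DESeq2 and 1 lower at an unadjusted edgeR p under 0.05. Of 15 listed subunits only these 9 had enough counts, and *CYBA* had 17, 9 and 11 counts with DMSO. As with the cytokines, a gene could pass the count filter through the PTDSS1i libraries alone, so this share depends on the filter. The fewest called higher under any alternative was 2. Antioxidant genes controlled by NRF2 rose in 7 of 39 cases and fell in 1, and 4 rose without the DMSO library numbered 2. *GCLC*, the catalytic subunit of glutathione synthesis, went from 51.4, 46.1 and 49.7 to 112, 104 and 104 (log2 fold change 1.12 ± 0.058 SE, edgeR adjusted p = 3.35e-13), while its partner *GCLM* was higher by 0.28 and *NQO1* by 0.20, under the threshold. *HMOX1*, the heme-degrading enzyme, went from 12.95, 10.3 and 11.8 to 30.0, 23.0 and 22.9 (log2 fold change 1.11 ± 0.11 SE, edgeR adjusted p = 2.64e-07), and was 0.97 without the PTDSS1i library numbered 1. The glutathione transferase *GSTM3* fell from 7.67, 14.2 and 11.8 to 2.61, 3.06 and 3.92 (log2 fold change -1.80 ± 0.26 SE, edgeR adjusted p = 4.42e-04). The antioxidant response element core, TGACNNNGC on either strand, was found in 12 of 41 promoters of this list (29.3%), against 10.9% of all promoters. Of the 4 members that rose and had a listed promoter, 1 held a match, and the 1 that fell held none. The matches describe the sequence of the list and not the genes that changed.

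Some metallothioneins, small zinc- and copper-binding proteins, fell. The metal list had 3 of 28 tested genes lower, all metallothioneins, and 1 higher, the zinc transporter *SLC39A13* (1.00), which was 0.97 without the DMSO library numbered 1. The metal response element core, TGCNCNC on either strand, is short and occurred in 49.1% of all promoters and in 19 of 34 of this list (55.9%). Plus-strand windows of 120 bases before the starts of a member that fell and of one that missed the fold threshold, chr16:56682310-56682429 and chr16:56608404-56608523 on GRCh38.p14, are shown with the matches in capitals.
MT1X: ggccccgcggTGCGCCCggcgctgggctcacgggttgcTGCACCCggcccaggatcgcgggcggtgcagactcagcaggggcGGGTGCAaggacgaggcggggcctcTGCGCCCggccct
MT2A: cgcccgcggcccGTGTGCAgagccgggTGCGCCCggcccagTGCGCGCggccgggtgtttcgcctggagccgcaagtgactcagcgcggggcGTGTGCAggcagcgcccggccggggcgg
*MT1X* measured 8.41, 8.82 and 8.93 with DMSO and 2.75, 3.26 and 2.81 with PTDSS1i (log2 fold change -1.57 ± 0.13 SE, edgeR adjusted p = 8.54e-10), and *MT1E* 85.7, 78.0 and 86.4 with DMSO and 35.6, 37.1 and 38.8 with PTDSS1i (log2 fold change -1.16 ± 0.061 SE, edgeR adjusted p = 3.69e-13). *MT2A* went from 314, 279 and 299.8 to 146, 148 and 157 and narrowly missed the fold threshold (log2 fold change -0.98 ± 0.055 SE, edgeR adjusted p = 1.04e-12). The groups did not overlap for any of these genes, whose sequences are similar enough that reads may be shared. The zinc exporter *SLC30A1*, another target of the same metal-sensing factor, was 54.5, 56.8 and 59.0 with DMSO and 52.3, 53.5 and 51.4 with PTDSS1i (log2 fold change -0.12 ± 0.057 SE, edgeR adjusted p = 0.0789). Exons overlapped for *LPIN1* with *AC012456.2*, *PCYT2* with *ANAPC11*, *CHPT1* with *SYCP3*, *STARD10* with *AP002381.2*, *KDELR3* with *DDX17*, *PISD* with *MIR7109*, *ANGPTL4* with *RAB11B-AS1*, *VEGFA* with *AL136131.3*, *PFKFB4* with *UCN2*, *NOXO1* with *TBL3*, *GCLC* with *AL033397.1*, *GSTM3* with *AL158847.1* and *MT1X* with *AC026461.1*.

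**Figure D4:**
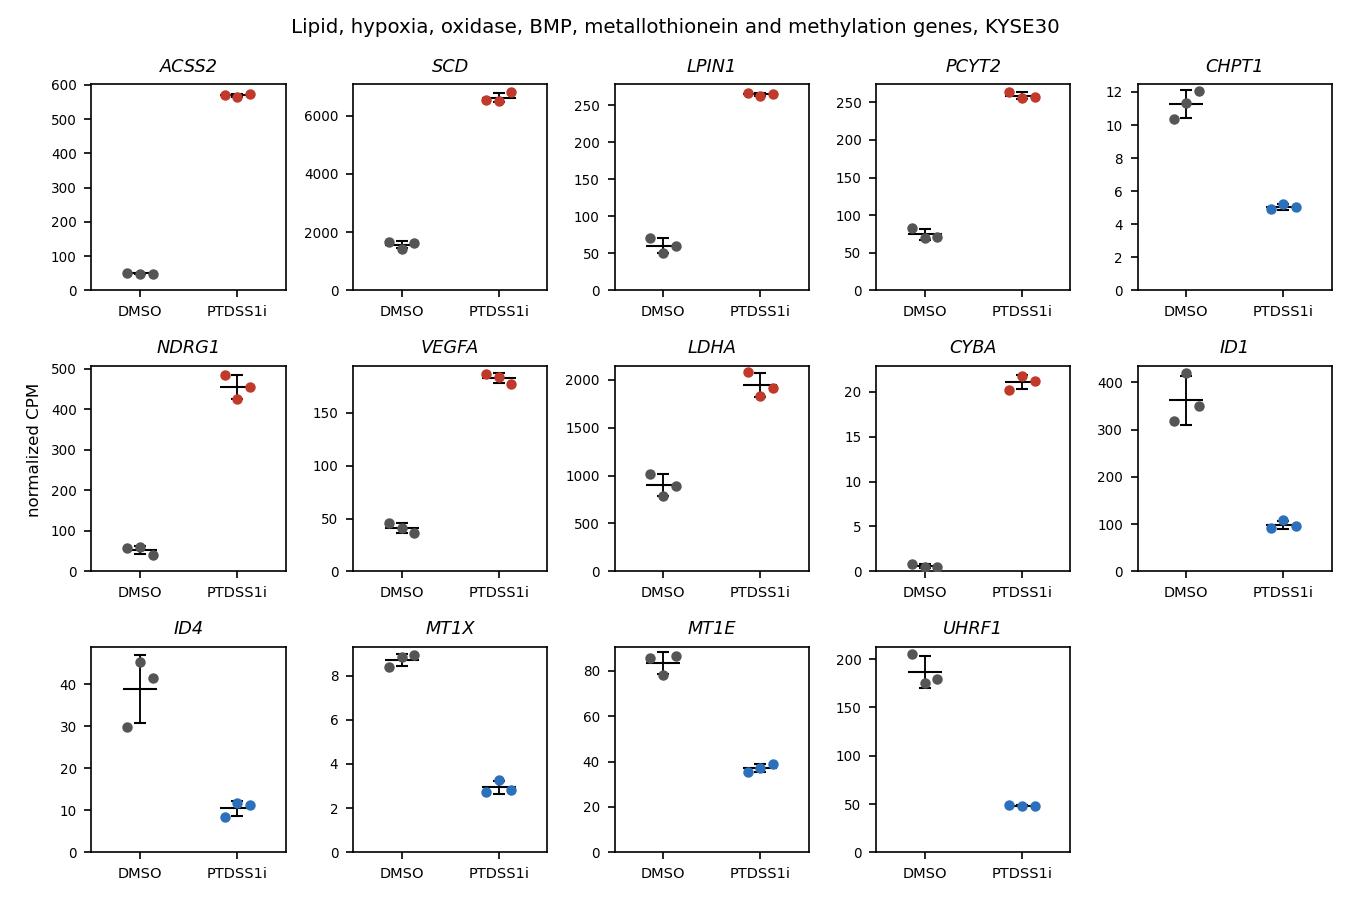
Normalized CPM (y axis, from 0) of lipid, hypoxia, oxidase, BMP target, metallothionein and DNA methylation genes in the KYSE30 libraries, with 1 point per library in replicate order, a bar at the mean and an error bar of 1 SD (n = 3). *ACSS2* sits at 48.0 to 51.9 with DMSO and 564 to 573 with PTDSS1i, while *CHPT1*, *ID1*, *ID4*, *MT1X*, *MT1E* and *UHRF1* are lower in every PTDSS1i library.

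Genes that accompany exit from the cell cycle rose in part: 12 of 36 tested members were called higher and 3 lower, with a median of 0.31. *MXD1*, which competes with MYC for its partner MAX, went from 12.6, 12.1 and 11.9 to 82.3, 79.3 and 80.3 (log2 fold change 2.73 ± 0.065 SE, edgeR adjusted p = 2.04e-18). The unconventional cyclin *CCNG2* went from 25.9, 28.03 and 29.3 to 81.2, 80.5 and 81.4 (log2 fold change 1.55 ± 0.061 SE, edgeR adjusted p = 3.35e-15), and *YPEL2* from 2.88, 4.13 and 3.40 to 14.4, 13.2 and 11.9 (log2 fold change 1.92 ± 0.13 SE, edgeR adjusted p = 3.12e-11). The inhibitors *CDKN1A* (1.59), *CDKN2B* (1.64) and *CDKN1C* (1.47) rose, whereas *CDKN1B*, the p27 gene, was 64.6, 66.8 and 62.8 with DMSO and 60.2, 59.3 and 60.1 with PTDSS1i (log2 fold change -0.11 ± 0.054 SE, edgeR adjusted p = 0.0824). *RBL1*, a pocket protein of proliferating cells, fell from 25.4, 28.2 and 29.05 to 8.44, 8.51 and 10.9 (log2 fold change -1.56 ± 0.097 SE, edgeR adjusted p = 6.79e-12), and *RBL2*, its quiescence counterpart, was 124, 146 and 138.3 with DMSO and 126, 119 and 126 with PTDSS1i.

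Histone genes gave a divided picture in these poly-A libraries, which catch histone mRNA only when it carries a tail. Of 38 tested genes 15 rose and 2 fell. *H3C6* went from 7.87, 10.1 and 7.83 to 32.9, 32.8 and 29.5 (log2 fold change 1.89 ± 0.094 SE, edgeR adjusted p = 1.76e-13) and *H4C8* from 6.89, 6.45 and 6.17 to 27.9, 23.3 and 24.6 (log2 fold change 1.96 ± 0.096 SE, edgeR adjusted p = 1.31e-13), both from the clustered replication-type genes. The variant *H2AX*, whose gene also makes a tailed transcript, fell from 139, 127 and 121 to 51.1, 54.4 and 50.9 (log2 fold change -1.31 ± 0.059 SE, edgeR adjusted p = 3.63e-14), and *H2AZ1* was lower by less than the threshold (-0.71). Clustered histone genes are near copies, so the split among them is uncertain.

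DNA methylation and Polycomb genes fell in 10 of 33 cases, with a median of -0.50 and a summed level of 0.628 times the DMSO mean. With edgeR and with DESeq2 0 were called higher, and 3 were higher at an unadjusted edgeR p under 0.05. *UHRF1*, which guides maintenance methylation to newly copied DNA, went from 205, 175 and 179 to 49.5, 47.7 and 48.3 (log2 fold change -1.94 ± 0.061 SE, edgeR adjusted p = 1.28e-16), and the remodeller *HELLS* from 79.9, 85.7 and 91.5 to 21.1, 18.9 and 23.3 (log2 fold change -2.02 ± 0.073 SE, edgeR adjusted p = 1.68e-15). The maintenance methyltransferase *DNMT1* went from 357, 313 and 318 to 171, 155 and 158 (log2 fold change -1.03 ± 0.058 SE, edgeR adjusted p = 1.40e-12) and the Polycomb enzyme *EZH2* from 58.6, 53.7 and 59.0 to 27.5, 29.4 and 28.2 (log2 fold change -1.01 ± 0.063 SE, edgeR adjusted p = 6.84e-12). Both lay at the fold threshold: without the DMSO library numbered 1 they were -0.96 and -0.99. Related Polycomb genes did not pass the test, *EZH1* being 27.9, 33.1 and 33.4 with DMSO and 28.1, 28.1 and 28.5 with PTDSS1i (log2 fold change -0.16 ± 0.073 SE, edgeR adjusted p = 0.066) and *CBX7* 18.7, 21.4 and 19.5 with DMSO and 18.9, 19.8 and 18.04 with PTDSS1i (log2 fold change -0.07 ± 0.08 SE, edgeR adjusted p = 0.447).

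Ribosome biogenesis was the list with the lowest median, -0.66. Of 68 tested factors 10 fell past the fold threshold and 64 were lower at an adjusted p under 0.05 alone (background 32.0%), and 18 fell with scaling by library size alone. By edgeR and DESeq2 0 were called higher, with 0 higher at an unadjusted edgeR p under 0.05. *LYAR*, a nucleolar factor, went from 37.5, 29.3 and 33.4 to 14.8, 14.5 and 13.5 (log2 fold change -1.23 ± 0.087 SE, edgeR adjusted p = 7.64e-11) and the large-subunit assembly factor *MRTO4* from 67.2, 53.6 and 56.9 to 25.5, 26.97 and 24.8 (log2 fold change -1.20 ± 0.077 SE, edgeR adjusted p = 2.54e-11). The box C/D proteins *NOP56* (-1.04) and *NOP58* (-1.07) fell, and *FBL*, *NCL*, *POLR1B* and *NPM1* were lower by less than the threshold (-0.91, -0.85, -0.86 and -0.53). The summed level was 0.626 times the DMSO mean.

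Cytosolic heat shock proteins had 5 of 43 tested members lower and 1 higher, with a median of -0.34. *FKBP5*, a cochaperone of steroid receptors, fell from 26.9, 23.6 and 22.5 to 8.34, 8.87 and 10.1 (log2 fold change -1.41 ± 0.095 SE, edgeR adjusted p = 2.73e-11). *HSP90AA1* and *HSPA8* were lower by less than the threshold (-0.55 and -0.49), *HSPA1A* and *HSPB1* higher (0.30 and 0.78), and *DNAJB2* was called higher (1.10, and 0.999 with scaling by library size alone). In the circadian clock list 3 of 21 rose, with 0 lower by edgeR and DESeq2 and 1 lower at an unadjusted edgeR p under 0.05. The repressor *BHLHE40* went from 74.2, 75.5 and 70.0 to 211, 213 and 215 (log2 fold change 1.54 ± 0.051 SE, edgeR adjusted p = 2.70e-16). *PER1* was higher by 0.75, under the threshold, and *PER2* was at 10.8, 9.83 and 10.9 with DMSO and 9.51, 12.8 and 9.37 with PTDSS1i with overlapping groups.

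Ion channels and pumps rose in 11 of 58 cases and fell in 1. *KCNK6*, a background potassium channel, went from 4.98, 6.35 and 5.32 to 17.2, 15.96 and 15.8 (log2 fold change 1.56 ± 0.11 SE, edgeR adjusted p = 3.99e-11), the calcium-gated channel *KCNMA1* from 3.71, 3.38 and 3.57 to 12.8, 9.58 and 9.82 (log2 fold change 1.59 ± 0.14 SE, edgeR adjusted p = 1.29e-09), and the sodium pump subunit *ATP1B1* from 19.2, 18.5 and 19.6 to 53.1, 42.0 and 39.5 (log2 fold change 1.23 ± 0.098 SE, edgeR adjusted p = 3.76e-08). *STIM1*, the calcium sensor of the reticulum, was 29.5, 32.3 and 26.3 with DMSO and 28.2, 27.1 and 28.9 with PTDSS1i with overlapping groups. The calcium channel *TRPV6* (-3.01) was the member that fell.

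**Figure D5:**
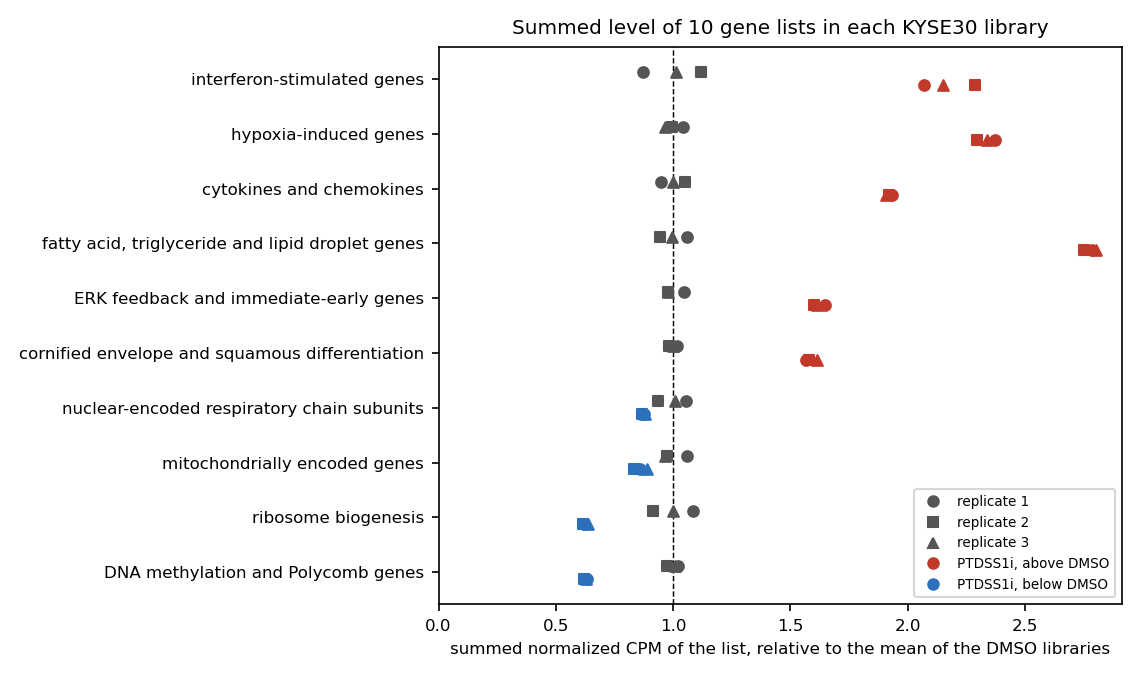
Summed normalized CPM of 10 gene lists in each KYSE30 library, relative to the mean of the DMSO libraries (x axis, 1 is the DMSO mean; lists on the y axis), with 1 point per library. The fatty acid sums, most of whose rise is *SCD* and *FASN*, lie highest, with a ratio of means of 2.78, and the ribosome biogenesis and Polycomb sums lowest, at 0.626 and 0.628.

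Outside the lists, some of the largest changes belonged to surface and transport genes. *CEACAM5*, an adhesion glycoprotein of epithelia, measured 8.65, 15.3 and 12.2 with DMSO and 162, 148 and 134 with PTDSS1i (log2 fold change 3.62 ± 0.20 SE, edgeR adjusted p = 4.11e-05). *SLC5A3*, the sodium-coupled importer of myo-inositol, went from 40.3, 46.9 and 44.5 to 421, 358 and 321 (log2 fold change 3.06 ± 0.11 SE, edgeR adjusted p = 1.03e-08), *IL1RL1*, the receptor of interleukin-33, from 1.52, 0.706 and 1.02 to 11.4, 9.58 and 11.9 (log2 fold change 3.34 ± 0.18 SE, edgeR adjusted p = 9.66e-13), and *SDCBP2*, a PDZ protein related to syntenin, from 2.49, 2.57 and 2.47 to 26.1, 23.8 and 24.97 (log2 fold change 3.31 ± 0.11 SE, edgeR adjusted p = 1.54e-16). Every PTDSS1i library was above every DMSO library for these genes, and *LINC03040*, which GENCODE v29 lists as a protein-coding gene despite the symbol, went from 1.32, 0.706 and 1.06 to 10.0, 11.6 and 11.2. Among the falls, the placental-like alkaline phosphatase *ALPG* went from 13.4 ± 4.16 to 3.03 ± 0.702 (mean ± SD, n = 3, log2 fold change -2.14 ± 0.28 SE, edgeR adjusted p = 5.34e-04), the adaptor *DOK1* from 9.29, 8.32 and 7.95 to 1.44, 1.78 and 2.15 (log2 fold change -2.23 ± 0.16 SE, edgeR adjusted p = 5.03e-11), the homeobox gene *LHX2* from 13.8, 13.7 and 14.2 to 3.08, 4.28 and 3.43 (log2 fold change -1.96 ± 0.12 SE, edgeR adjusted p = 5.98e-12) and complement component *C5* from 17.3, 20.6 and 19.9 to 4.24, 4.79 and 5.53 (log2 fold change -1.98 ± 0.11 SE, edgeR adjusted p = 1.40e-12). The groups did not overlap in any of them. Exons overlapped for *HELLS* with *AL138759.1*, *DNMT1* with *S1PR2*, *RBL1* with *AL136172.1*, *MXD1* with *SNRNP27*, *MRTO4* with *EMC1*, *BHLHE40* with *BHLHE40-AS1*, *KCNMA1* with *KCNMA1-AS1*, *ATP1B1* with *NME7*, *CEACAM5* with *AC243967.1*, *SLC5A3* with *AP000317.2*, *IL1RL1* with *IL18R1*, *SDCBP2* with *AL136531.2*, *LINC03040* with *AL109615.3*, *DOK1* with *LOXL3* and *LHX2* with *AC006450.2*, and *CEACAM5* has close paralogs.

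Symbol families grouped genes by name and not by the lists, although some of their members, *KLF4* and *KLF6* among them, are also list members. Among families of 15 or more tested genes, Krüppel-like factors (KLF) had the highest median log2 fold change, 0.56, with 4 of 15 called higher (*KLF6*, *KLF9*, *KLF4* and *KLF11*) and 12 higher at an adjusted p under 0.05 alone (background 30.1%). Cytochrome P450 genes (CYP) had 11 of 38 called higher and 1 lower, with a median of 0.33, pseudogenes and the sterol enzyme *CYP51A1* included. Below the median of all genes lay the nucleoporins (NUP, 25 genes, median -0.74, 5 called lower), the hosts of small nucleolar RNAs (SNHG, 21 genes, -0.60, 3 called lower), the tRNA methyltransferases (TRMT, 18 genes, -0.38) and the mitochondrial ribosomal proteins of the large subunit (MRPL, 51 genes, -0.38, 1 called lower). Long non-coding RNAs were called somewhat more often than protein-coding genes, with 7.99% of 2128 higher and 9.96% of 2128 lower against 6.19% and 6.44% of 12749, and the difference was not tested.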

How the data were processed

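RNA-seq libraries of KYSE30 cells, 3 with PTDSS1i (100 nM) and 3 with DMSO, both for 48 h, were examined. The authors deposited raw counts per gene, which were whole numbers with no scaling. The submitters' processing notes name Trimmomatic, STAR, featureCounts and hg38, with no role or version, and the labels name a poly-A kit that does not mark strand. The annotation and the strand setting of the counting are not given in the sources used here, and exon overlaps were taken from GENCODE v29, which may differ from it. Depth was 18800932 to 25233442 counts per library, and the limit of 3 counts covers counting error only. Columns were assigned to samples by label.

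The tools were edgeR 4.0.16, limma 3.58.1 and DESeq2 1.42.0 (alternatives only) under R 4.3.3, and matplotlib 3.10.9 and pandas 2.3.3 under Python 3.11.15. The filterByExpr filter (minimum count 10, minimum total 15) kept 16389 genes. TMM scaling, a robust quasi-likelihood fit and the Benjamini-Hochberg method over all of them followed, with calls at an adjusted p under 0.05 and an absolute log2 fold change over 1. The biological coefficient of variation was 0.0549.

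The 39 lists and their members were chosen with earlier results of these data known. No set test was run, and lists are described by counts and medians. Genes were named by rule: the 15 largest called changes in each direction, the 2 largest called members of each list in each direction (both with a mean of at least 5 normalized CPM, no overlap of the groups and, for the first, not on lists of stress, replication and sterol genes), and preset members of each list, 230 genes in all. A few of these genes are not reported here. In total 212 list members had too few counts to be tested. Promoter sequences came from RefSeq (GRCh38.p14). Alternatives were scaling by library size alone, upper quartile or relative log expression, DESeq2, other count filters, non-robust dispersion, a test against a fold of 1.5, the adjusted p alone, a replicate block, and leaving out each library.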

Additional observations from a re-analysis of the deposited data

Results flagged for a closer look

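Of the 212 list members with too few counts to be tested, 7 had in every PTDSS1i library at least 2 times the highest count of the DMSO libraries, and none of them entered a comparison. The counts of *IFNL2*, a lambda interferon, were 3, 3 and 5 with DMSO and 24, 11 and 11 with PTDSS1i, so the lowest PTDSS1i count was 11. For the membrane-anchored protease *MMP25* the lowest PTDSS1i count was 8 against at most 4 with DMSO. The scramblase family gene *PLSCR2* had at least 5 counts against at most 1, the aldo-keto reductase *AKR1C1* at least 8 against at most 2, and the NADPH oxidase organizer *NCF1* exactly 6 in each PTDSS1i library against 1 in each DMSO library. Among the histone genes, *H2AC12* had at least 4 against at most 2 and *H2BC18* at least 7 against at most 2. These genes have close copies (*IFNL3*, *AKR1C2*, *NCF1* pseudogenes, other histones), so reads may be shared, and the differences were not tested.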

How the results depend on the processing

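The 1049 genes called higher and 1154 called lower became 1042 to 1197 and 1138 to 1257 when each library was left out in turn. With the adjusted p alone they were 4927 and 5238. The other alternatives stayed within 1.5 times: 860 and 1398 with scaling by library size alone, which moved the median of all genes by -0.105 and the share of calls in the higher direction from 47.6% to 38.1%, and 737 and 876 with at least 10 counts in every library. Replicate numbers were shared by the groups, the labels do not say whether they pair the samples, and the main test was unpaired. Deviations of same-numbered libraries from their group means were weakly correlated (0.0754, 0.0721 and 0.0204), which cannot settle whether the samples were paired. Each library did correlate best with its own number, which is a hint from the data and not the design. With a replicate block the counts were 1052 and 1153. Under the block *SLC2A3* was called lower (adjusted p = 6.15e-05). Of 230 named genes, 222 kept their direction under every alternative. Those that changed sign were all without a call: *ANXA5* (-0.0493), *DBP* (-0.00615) and *SNAI2* (-0.0486) with scaling by library size alone, *AXIN2* (-0.646 to 0.0169), *EREG* (-0.0207 to 0.201), *STIM1* (-0.138 to 0.00719) and *PTDSS1* (-0.108 to 0.0155) over the fits that each left out 1 library, and *PER2* with library size alone (-0.101), upper-quartile scaling (-0.021), a minimum of 1 count (-0.00857), the replicate block (-0.00455) and 1 library left out (-0.152 to 0.0892). In all 15 genes lost and 8 gained their call under some alternative, the cause of which was not tested. Of 39 list medians, 35 kept their sign under every alternative, and those of the matrix protease, mesenchymal, Notch and Wnt lists turned negative with library size alone. With that scaling the members called higher were 1 rather than 3 in the junction list, 3 rather than 5 in the Wnt list and 4 rather than 7 in the NRF2 list. Depth limited the rare genes: *IFNL1*, under 1 normalized CPM in the DMSO libraries alone, and *ZEB1*, with at most 27 counts in a library, rest on few counts.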
